A study of Homo sapiens with 4 samples.

Results

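The regions described here are the HIF1α ChIP-seq peaks found in both replicates of HK2 cells, an immortalized line of human renal proximal tubular epithelium. They were chosen by position alone. A peak of replicate 1 was a member where it overlapped a peak of replicate 2 by 1 bp or more, so the peak calls of both libraries selected the members and are no finding about them. Of 1689 replicate 1 peaks, 344 met this rule (20.4%), and they overlapped 332 of the 16953 replicate 2 peaks. Members whose interval lay within 1 kb of an annotated transcript start site, 177 in all, are called promoter peaks, and the other 167 are called distal.

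All libraries came from HK2 cells given 50 μM FG-4592 (roxadustat), 2 for HIF1α ChIP-seq and 2 for RNA-seq. Treatment lasted 6 h for the RNA-seq, and the ChIP-seq used the same condition. The study concerned HIF1α and the metabolism of renal tubule cells. Untreated cells were not analysed here, and every FPKM below is a level in treated cells rather than a change.

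HIF1α is the oxygen-regulated subunit of a transcription factor. With oxygen present, prolyl hydroxylases mark it for destruction through VHL, and FG-4592 inhibits these hydroxylases so that HIF1α accumulates. It then pairs with ARNT and binds hypoxia response elements, short DNA sites whose core reads ACGTG or GCGTG, at genes for glucose use, mitochondrial turnover, matrix modification and oxygen sensing itself.

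The genome around a response element core is printed for promoter members that the results below turn on, from enzymes of glucose use to a prolyl hydroxylase. Each sequence was read from GRCh37 (hg19) around the core nearest the replicate 1 peak centre among the bases common to both peaks. It runs 5′ to 3′ on the strand that carries that core, and capitals mark each ACGTG or GCGTG on either strand. The cores of *PDK1*, *SLC16A3* and *P4HA1* lie in annotated exons and those of *PGK1*, *ALDOA*, *PFKFB4*, *ANKRD37* and *AK4* in introns, while *LDHA* and *KHDRBS1* have theirs outside annotated genes.
*LDHA* (chr11:18416007-18416071, minus strand): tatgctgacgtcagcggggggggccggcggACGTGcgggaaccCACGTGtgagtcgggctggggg
*PGK1* (chrX:77359504-77359568, plus strand): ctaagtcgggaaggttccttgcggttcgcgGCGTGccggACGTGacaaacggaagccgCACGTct
*ALDOA* (chr16:30076853-30076917, minus strand): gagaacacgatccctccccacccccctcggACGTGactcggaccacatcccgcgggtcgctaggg
*PFKFB4* (chr3:48594686-48594750, plus strand): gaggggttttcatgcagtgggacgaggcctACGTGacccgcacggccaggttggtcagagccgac
*PDK1* (chr2:173420798-173420826, minus strand): ctgccgagtggtACGTGagggACGTGgcg
*SLC16A3* (chr17:80188985-80189013, minus strand): gggACGTGggggACGTGaccgcgccatgg
*EGLN1* (chr1:231558030-231558058, minus strand): gggccgtggtgtACGTGcagagcgcgcag
*P4HA1* (chr10:74856694-74856722, plus strand): gcagccctcgctACGTGagctcgatcaca
*ANKRD37* (chr4:186317670-186317734, minus strand): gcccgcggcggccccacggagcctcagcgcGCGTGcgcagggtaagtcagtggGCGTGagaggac
*AK4* (chr1:65614330-65614394, plus strand): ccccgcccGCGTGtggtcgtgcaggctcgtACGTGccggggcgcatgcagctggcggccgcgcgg
*KHDRBS1* (chr1:32479214-32479278, minus strand): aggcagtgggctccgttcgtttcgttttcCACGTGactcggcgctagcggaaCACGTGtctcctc

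At *LDHA* a core lay 6 bp from the peak centre and the printed window holds 3 cores, and the *PGK1* window also holds 3. The *PDK1* and *SLC16A3* windows each hold a pair of ACGTG cores a few bases apart, and the *KHDRBS1* window, of an RNA-binding protein gene, holds 4. A match to these letters is a description of the sequence and does not show which base HIF1α touched.

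Distal members printed in the same way lie in introns or between genes. They are shown because a core near the centre was a property of distal members outside tandem repeats, described below. *EGLN3*, *PKM* and *NEK6* name the nearest start site of intronic peaks, and *LFNG*, *EDN2* and *BHLHE40-AS1* that of intergenic ones.
*EGLN3* (chr14:34407675-34407739, plus strand): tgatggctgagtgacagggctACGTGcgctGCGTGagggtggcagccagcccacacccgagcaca
*PKM* (chr15:72519187-72519251, plus strand): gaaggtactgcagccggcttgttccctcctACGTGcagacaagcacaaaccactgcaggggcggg
*LFNG* (chr7:2548142-2548206, minus strand): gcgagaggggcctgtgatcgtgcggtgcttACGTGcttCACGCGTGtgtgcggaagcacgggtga
*EDN2* (chr1:41962017-41962081, plus strand): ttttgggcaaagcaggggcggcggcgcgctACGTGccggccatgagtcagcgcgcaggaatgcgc
*BHLHE40-AS1* (chr3:5028716-5028780, plus strand): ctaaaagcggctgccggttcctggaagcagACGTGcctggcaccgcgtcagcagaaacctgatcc
*NEK6* (chr9:127046731-127046795, minus strand): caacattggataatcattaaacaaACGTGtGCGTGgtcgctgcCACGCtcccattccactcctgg

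Most other distal members looked different. Their sequence repeats itself in tandem, and a pair of stretches from chromosome 17 and a stretch from chromosome Y stand for them. In the first pair, capitals mark the 52 of 60 bases (86.7%) that are equal 171 bases apart, and in the last sequence they mark GGAAT.
Repeat at the peak centre (chr17:22252151-22252210, plus strand): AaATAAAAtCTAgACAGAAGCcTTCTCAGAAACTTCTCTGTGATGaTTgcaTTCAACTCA
The same repeat 1 unit further along (chr17:22252322-22252381, plus strand): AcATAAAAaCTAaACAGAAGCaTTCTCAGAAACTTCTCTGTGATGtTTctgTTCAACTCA
GGAAT-rich repeat (chrY:58852925-58852984, minus strand): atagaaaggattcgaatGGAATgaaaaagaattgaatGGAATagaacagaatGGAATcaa

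Motif content was counted within 100 bp of the replicate 1 peak centre, since the peak lists give no summit. An ACGTG or GCGTG core on either strand lay in that window at 163 of 177 promoter members (92.1%, Wilson 95% interval 87.2 to 95.2). In windows of the same length 1 kb to either side of these peaks the share was 32.9%, and at the start sites of all protein-coding genes it was 42.8% (8620 of 20141). ACGTG alone was present at 77.4% of promoter members against 16.4% of gene start sites, and GCGTG at 57.1% against 32.6%. Promoter members are rich in G and C, with a mean of 70.2% in the window. The same letters in another order, GTACG or GTGCG, lay at 66.7% of promoter members and 34.8% of start sites. In the windows 1 kb to either side they lay at 19.8%. Neither contrast is thus particular to the core. Base composition moves with both, to a degree that was not tested.

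Among promoter members, 117 carried 2 or more cores in the window and 23 carried 5 or more. These counts take a CACGTG as 2 cores, so they exceed the number of separate sites. TACGTG lay at 26.6% of promoter members and CACGTG at 18.6%, against 2.18% and 5.87% of gene start sites. The GC box GGGCGG was present at 59.9% against 46.7% of start sites, CCAAT at 16.4% against 25.9%, the AP-1 site TGANTCA at 6.21% against 3.90%, and CAGGTG at 13.6% against 15.2%. At promoter peaks of replicate 1 alone the shares were close: TACGTG 24.9%, CACGTG 16.5%, GGGCGG 59.4%, CCAAT 15.1%, TGANTCA 6.90% and CAGGTG 14.3%. The first pair of hexamers contain the core, so their shares are not independent of its share.

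The core nearest the centre lay a median of 14 bp away at promoter members, within 10 bp in 70 peaks and within 25 bp in 109. At distal members outside tandem repeats the median was 13 bp, with 36 of 45 cores within 25 bp. A window with more cores holds a nearer one by number alone. The means were 2.55 cores per window at promoter members and 1.73 at these distal ones. Of the nearest cores at promoter members, 66.9% read ACGTG, against 38.9% of the nearest cores in windows 1 kb to the right. Of the 109 promoter cores that read ACGTG, G preceded 45.0% and T 30.3%, and T preceded 17 of the 33 distal ones (51.5%). At peaks of replicate 1 alone G preceded 35.0% and T 33.8% of promoter ACGTG cores, and T preceded 37.1% of distal ones outside tandem repeats. C followed 44.2% of all 163 promoter cores, 45.9% of those of replicate 1 alone and 11.1% of the 54 flanking cores. The C after promoter cores and the T before them were thus not particular to members. The differences for G at promoters and T at distal peaks were not tested.

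**Figure D1:**
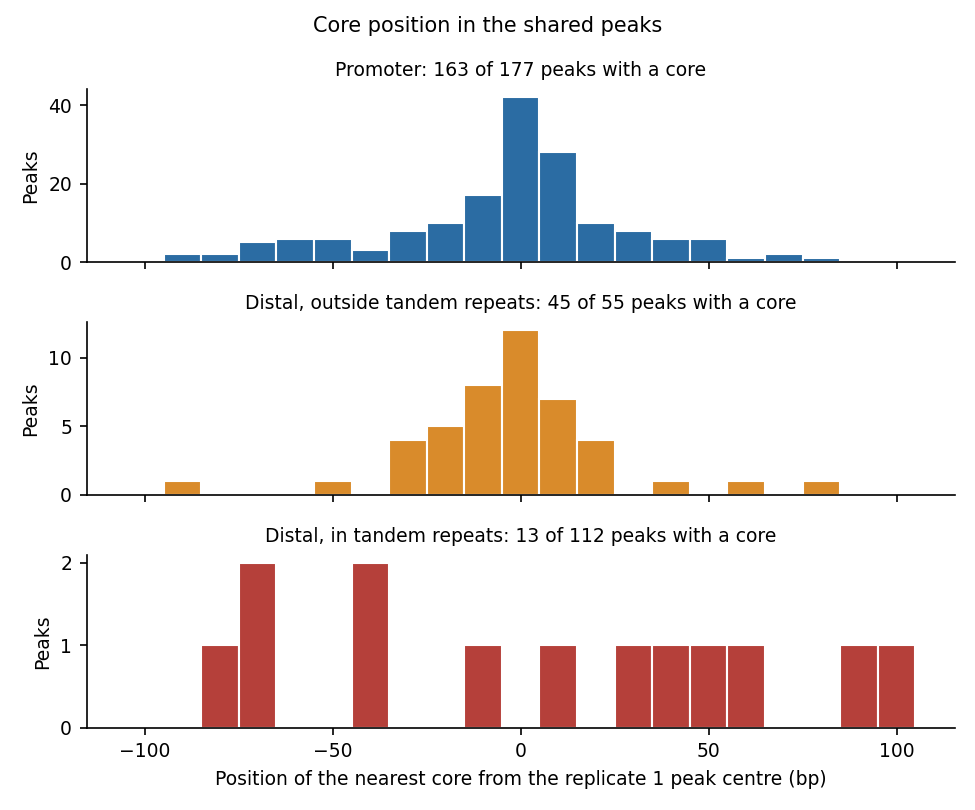
Position of the core nearest the replicate 1 peak centre, in bins of 10 bp, for promoter members, distal members outside tandem repeats and distal members in them. Nearest cores lie close to the centre in the first pair of panels, with medians of 14 and 13 bp. In the third, 13 of 112 peaks had a core. The number of cores per window differs between the panels and was not allowed for.

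Promoter members did not differ detectably in core share from the replicate 1 peaks at promoters that lacked a replicate 2 partner, of which 830 of 898 had a core (92.4%, 90.5 to 94.0). Promoter peaks of replicate 2 alone had one at 1721 of 5899 (29.2%), and 90.8% of the bases of that class lay in exons. For the first comparison a two-sided Fisher's exact test gave an odds ratio of 0.954 with p = 0.877, and 0.877 after adjustment over 4 tests. Among distal peaks the shares were far apart. A core was present at 58 of 167 shared distal peaks (34.7%, 27.9 to 42.2) and at 385 of 447 distal peaks of replicate 1 alone (86.1%, 82.6 to 89.0). The odds ratio was 0.0857, with p = 1.94e-34 and adjusted p = 7.74e-34 by a two-sided Fisher's exact test. Peaks within one repeat share their sequence, so these p-values count related peaks as if they were separate.

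Tandem repeats moved with that difference. Repetition was measured as the best match of the sequence within 1 kb of the centre with itself, shifted by 2 to 200 bases, and 40% was set as the limit after the values were seen. By this limit 112 of 167 distal members (67.1%) lay in tandem repeats, with values from 42.0% up, while the other 55 reached at most 38.4%. Only 13 of the 112 had a core (11.6%, 6.91 to 18.9), close to the 8.68% of windows 1 kb to either side. Outside tandem repeats 45 of 55 had one (81.8%, 69.7 to 89.8), against 381 of 434 (87.8%, 84.4 to 90.5) for distal peaks of replicate 1 alone. The odds ratio there was 0.626. Because the limit was chosen from these values, no test is given for it.

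**Figure D2:**
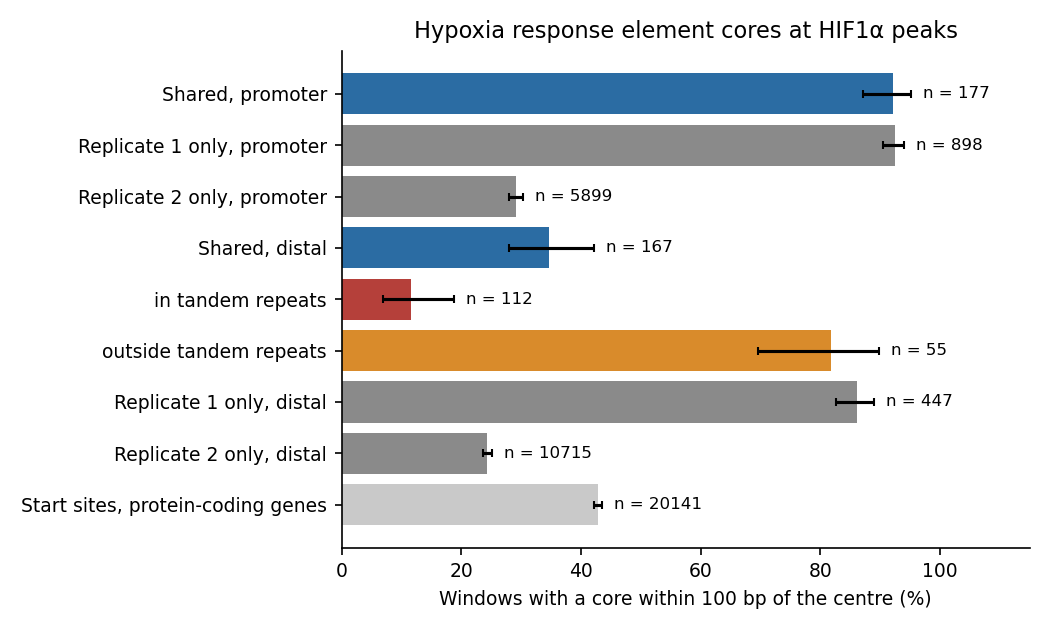
Share of peaks with a core within 100 bp of the centre, by class, with Wilson 95% intervals and the number of windows. Shared promoter peaks (92.1%) and distal ones outside tandem repeats (81.8%) stand near replicate 1 peaks without a partner, and those in tandem repeats (11.6%) fall below gene start sites (42.8%).

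The repeat members gathered in few places. Joined across gaps of up to 100 kb, the 112 peaks formed 24 stretches, of which 8 held 5 or more peaks and 77 peaks together. On chromosome 10, 13 peaks lay between 42383415 and 42400620, and on chromosome Y 13 lay between 58825394 and 58915733. A contig assigned to chromosome 9 without a position held 20, and unplaced or unlocalized contigs held 25 in all. With a pair of promoter members at *ROCK1P1* counted in, repeat members numbered 114. For 69 of them the best shift was 171 bases, the unit length for which alpha satellite DNA of centromeres is known. A further 34 were rich in GGAAT, which made up 14.9% to 39.5% of their bases, and none of these had a core. Their replicate 2 partners were wide, with a median of 1187 bp and a maximum of 21101 bp.

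Peaks in tandem repeats were shared far more often than others. In replicate 1, 114 of 130 such peaks met a replicate 2 peak (87.7%, 80.9 to 92.3), against 230 of 1559 others (14.8%, 13.1 to 16.6). In replicate 2 the shares were 13.5% of 755 and 1.42% of 16198. These shares follow from the rule that chose the members and are given without a test. How reads were placed in repeats, and whether a control library was used for calling, were not tested.

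**Figure D3:**
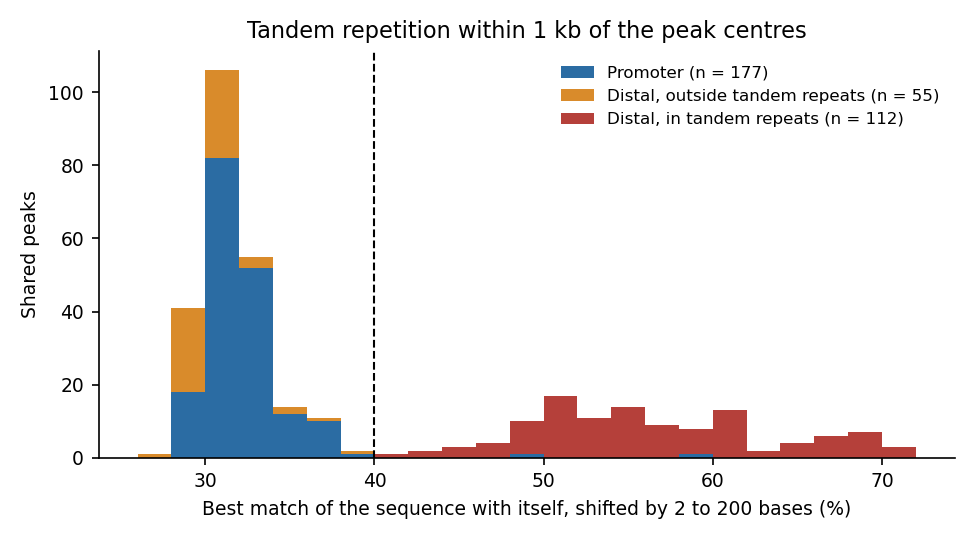
Best match of each member's sequence with itself under shifts of 2 to 200 bases, within 1 kb of the peak centre, for the 344 members, with the 40% limit as a dashed line. Promoter members other than the pair at *ROCK1P1*, with 55 distal ones, lie below 40%, and 112 distal members spread above it.

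The repeats also turned the comparison of promoter shares. Of the members, 51.5% lay at promoters, against 66.8% of the 1345 replicate 1 peaks without a partner and 63.6% of all replicate 1 peaks (odds ratio 0.528). The overlap that chose the members also set where they lie, so these shares are a description and no p is given. With tandem repeats left out, the order was the opposite, with 175 of 230 members (76.1%, 70.2 to 81.1) at promoters and 895 of 1329 others (67.3%, 64.8 to 69.8), an odds ratio of 1.54. The direction of the first comparison therefore holds for the lists as deposited and not for sequence outside tandem repeats.

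Members were also split by whether the replicate 2 partner contained exon bases. A core was present at 64 of 173 members whose partner held no exon base (37.0%) and at 157 of 171 whose partner held some (91.8%, odds ratio 0.0524). The partner peaks chose the members, so this split is a description too. All 112 distal repeat members had a partner without exon bases, so the split largely follows the repeats. With repeats left out the shares were 51 of 61 (83.6%, 72.4 to 90.8) and 157 of 169 (92.9%, 88 to 95.9), an odds ratio of 0.390. Within promoter members the shares were 17 of 19 (89.5%, 68.6 to 97.1) and 146 of 158 (92.4%, 87.2 to 95.6), with an odds ratio of 0.699.

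At the limits of the rule, the shortest overlaps were 13 bp at *PELO-AS1* and 53 bp at a peak shared by *EIF4A3* and ENSG00000279259. Just outside it, replicate 1 peaks near *BECN1* and *LOX* missed a replicate 2 peak by 2 bp and 7 bp, and one near *SLC2A1* by 57 bp. The edges of the promoter members farthest from a start site lay 910 bp from that of the lncRNA ENSG00000228862 and 854 bp from that of *SLC16A3*, and the nearest distal member lay 1253 bp from *MTFP1*. The widest common stretches were 1138 and 1136 bp in repeats of the X chromosome and 887 bp in one of chromosome 16, followed by 671 bp at *MIF* and 620 bp at *ANKRD37*. In 64.4% of promoter members one peak lay wholly inside the other, and 124 of 177 pairs of centres were within 100 bp.

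Promoter members sat close to start sites. The median distance from the centre to the nearest start site was 78 bp, and 100 of 177 centres lay within 100 bp, with 99 upstream and 78 downstream. Start sites of 262 genes lay within 1 kb: 184 protein-coding, 61 lncRNA and 17 of other kinds. Of the 177 peaks, 96 had start sites of 1 gene, 73 of 2 genes and 8 of 3 genes, and 74 had start sites on both strands.

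Expression was joined by Ensembl gene identifier, and 245 of the 262 genes had values. The authors' FPKM (fragments scaled by transcript length and library size) of all transcripts of a gene were added up. A mean FPKM of 1 or more was reached by 184 of these genes (75.1%), against 23.8% of all 55859 genes with values and 78.3% of the 1149 at promoter peaks of replicate 1 alone. At promoter peaks of replicate 2 alone it was 49.9% of 5184. For protein-coding genes these shares were 95.6% at members and 59.7% of all. They were 93.1% at replicate 1 peaks without a partner and 84.4% at replicate 2 peaks without one. The RNA-seq replicates gave medians of 14.9 and 14.7 FPKM. Among protein-coding genes alone, the median of the mean FPKM was 22.4 for the 183 at members, 12.3 for the 896 at promoter peaks of replicate 1 alone, 14.5 for the 2577 at those of replicate 2 alone and 3.37 for all 19658. The share of peaks with a replicate 2 partner differed between levels without rising throughout. Of replicate 1 promoter peaks, 22 of 68 (32.4%, 22.4 to 44.2) were shared where the gene nearest the centre had an FPKM of 100 or more, and 32 of 317 (10.1%, 7.24 to 13.9) where it had 1 to 10. From 10 to 100 it was 18.0% (86 of 478, 14.8 to 21.7) and below 1 it was 18.6% (29 of 156, 13.3 to 25.4), and the last interval overlaps that of the highest level. Since the replicate 2 calls chose the members, these levels describe the genes and test nothing about binding.

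Lists of genes known from the response to low oxygen gave 30 of 99 genes with a shared promoter peak, beside 175 of the 11726 protein-coding genes expressed at 1 FPKM or more (1.49%). The bases differ, since the 99 include non-coding genes and 91 of them reached that level. The lists were also chosen with earlier results of these data known. Median FPKM was 37.1 for the 99 and 3.37 for all 19658 protein-coding genes with values. A further 10 of the 99 had promoter peaks in both replicates that did not overlap, 20 in replicate 1 alone and 11 in replicate 2 alone. Of the 11726 expressed protein-coding genes, 834 lay at promoter peaks of replicate 1 alone and 2174 at those of replicate 2 alone. The latter counts may hold genes with both kinds of peak, so the classes differ and the list counts are a description. Shared promoter peaks lay at 13 of 26 genes of glucose use, 6 of 10 of mitochondria and mitophagy, and 5 of 12 repressors and growth brakes. Of the mitochondrial genes, *MIR210* and *MIR210HG* share a single peak. Matrix hydroxylases had 2 of 6, lipid genes 1 of 11, oxygen sensing 1 of 10, secreted factors 1 of 9 and histone demethylases 1 of 7. No gene of the iron list (*TFRC*, *TF*, *HMOX1* and *SLC40A1*) had one.

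In the glucose list, shared promoter peaks lay at enzymes of several steps of glycolysis. *GPI*, which interconverts glucose and fructose phosphates, had an FPKM of 172.9 in the first RNA-seq library and 172.5 in the second. The aldolase gene *ALDOA* had 530.8 and 495.9, and *PGK1*, the first step to regain ATP, 620.1 and 539.2. *ENO1* (enolase) stood at 2662 and 2579, and *PGAM1*, the mutase before it, at 837.2 and 822.9. Each of these exceeded an FPKM of 100, a level that 504 of 55859 genes reached, and the libraries gave similar values. *LDHA*, which turns pyruvate into lactate, had 695.9 and 696.6, and the lactate exporter *SLC16A3* 221.2 and 213.1.

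*GAPDH* had a pair of members. One, chr12:6642497-6642939, was centred 54 bp upstream of the divergent transcript *GAPDH-DT* with a core 8 bp from its centre. The other, chr12:6643234-6644281, was centred 50 bp downstream of a *GAPDH* start site with no core within 100 bp of the centre. The bases that this wide peak shares with its partner held 3 cores, farther from the centre. *GAPDH* was the gene with the highest level, 7670 and 7433. *TPI1*, *SLC2A1*, *HK2*, *PFKP* and *PKM* had promoter peaks in both replicates that did not overlap, and *PFKM* and *ALDOC* had none.

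Control points around the pathway were also members. *PFKFB4* and *PFKFB3*, which make and break the activator of phosphofructokinase, had FPKM of 42.7 and 39.6, and of 53.4 and 50.1. *PDK1*, the kinase that closes pyruvate dehydrogenase, was lower at 14.9 and 16.2. *PGM1*, the entry to glycogen, had 78.7 and 75.5, and *PPP1R3C*, a glycogen-targeting phosphatase subunit, 33.0 and 33.7. A pair of further genes of the same subunit family, found after the values were seen, also had members: *PPP1R3E* at 6.32 and 6.07 and *PPP1R3G* at 7.70 and 7.89.

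**Figure D4:**
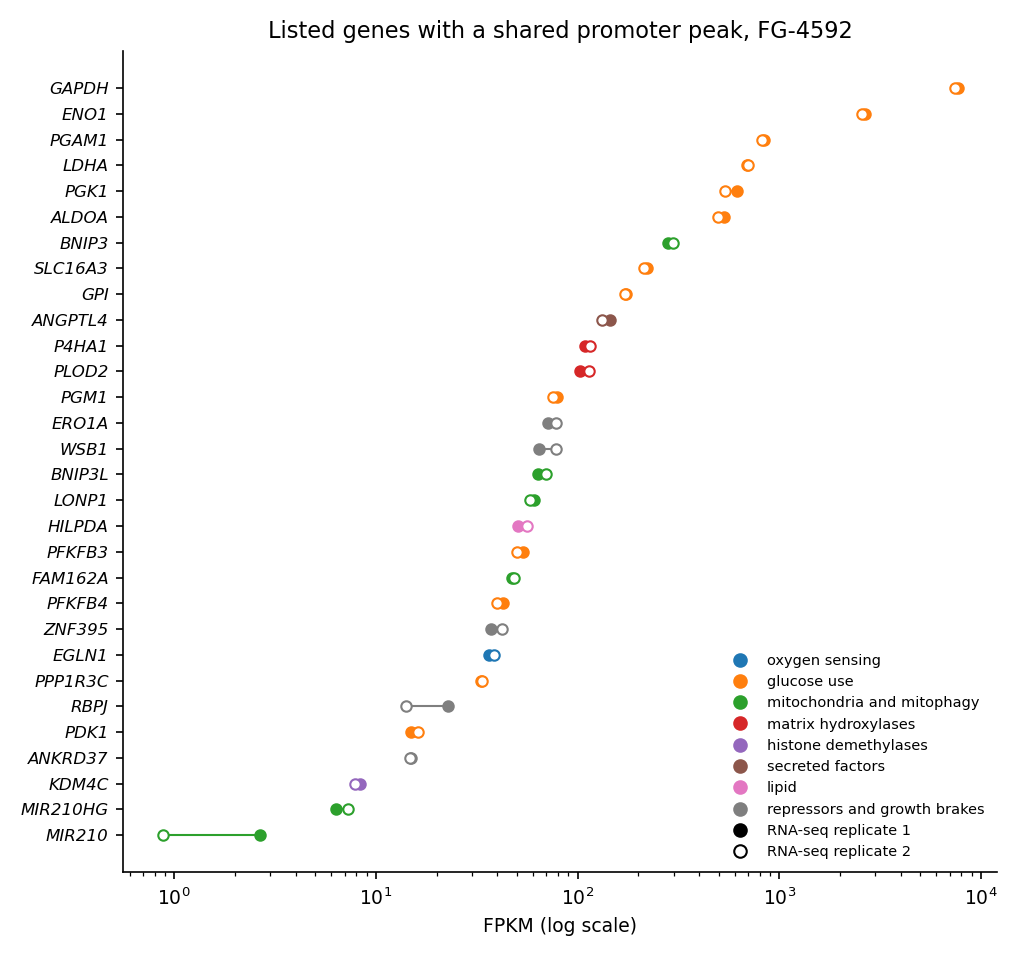
FPKM of the 30 listed genes with a shared promoter peak in RNA-seq replicate 1 (filled) and replicate 2 (open), on a log axis, coloured by list. Levels run from *MIR210* to *GAPDH* (7670 and 7433), glucose genes fill the top 6 places, and only *MIR210* and *RBPJ* stand clearly apart between the libraries.

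Of the oxygen sensing list, *EGLN1*, the main prolyl hydroxylase and a target of FG-4592, was the 1 member of 10, with an FPKM of 36.4 and 38.6. Its peak, chr1:231557714-231558342, was centred 5 bp from a start site. The processed copy *EGLN1P1*, found after the values were seen, also had a member, centred 323 bp upstream of its start, with an FPKM of 0.816 and 0.173. *HIF1A* itself, at 110.4 and 114.0, *EPAS1* and *CITED2* had a promoter peak in replicate 2 alone, and *ARNT* and *VHL* in neither.

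Among mitochondrial genes, *LONP1*, a matrix protease, had a member with 5 cores within 100 bp of the centre and an FPKM of 60.8 and 57.9. *FAM162A*, for a mitochondrial protein of cell death, had 47.2 and 48.5. Outside the lists and named by level, *VDAC1*, the channel of the outer membrane, had 135.7 and 146.1, with a core at the centre of its peak. The adenylate kinase gene *AK4*, found after the values were seen, had 115.3 and 86.9.

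The collagen hydroxylases *P4HA1* (108.7 and 115.7) and *PLOD2* (103.0 and 113.8) had members, while the *LOX* peaks missed each other and *P4HA2* had a peak in replicate 1 alone. *KDM4C*, a histone demethylase that needs oxygen, was the only one of 7 in its list, at 8.31 and 7.88. *KDM2A*, a further demethylase outside the list and found after the values were seen, had a member and an FPKM of 23.2 and 24.4. Among repressors and growth brakes, *WSB1* had 64.6 and 77.8, *ERO1A*, an oxidase of the endoplasmic reticulum, 71.5 and 78.05, and *ANKRD37* 14.9 and 14.7. *RBPJ*, the DNA-binding partner of Notch, differed between the libraries, with 22.7 and 14.0.

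Ranked by level, the 15 genes whose start site was nearest to a member's centre began with *GAPDH*, *LDHA*, *MIF*, *PGK1* and *ALDOA*. *MIF*, a secreted cytokine, had 682.6 and 648.9. *AGRN*, a basement membrane proteoglycan, had 261.6 and 236.7, and *SMS*, spermine synthase, 207.8 and 216.5. *PTGES3*, a chaperone partner of HSP90, had 189.8 and 182.4, and *PRDX4*, a peroxidase of the secretory pathway, 171.1 and 143.0. The translation factor gene *EIF3B* closed the list at 129.1 and 122.5. Cores lay within 10 bp of the centre at *SMS*, *PTGES3*, *PRDX4* and *AGRN* and 68 bp away at *MIF*.

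Ranked by cores in the bases common to both peaks, *ZBTB25*, which shares its promoter with *ZBTB1*, and a lncRNA at a *GPI* start led with 10 each. The lncRNA ENSG00000254028 followed with 9. *ZNF292*, *LONP1*, *FAM210A*, *TMEM18*, *ANKRD37* and *WDR45B* had 8 each, as did the lncRNAs ENSG00000273184 and ENSG00000236064. Among these genes *ZBTB25* had an FPKM of 2.66 and 2.55, and *WDR45B* 90.7 and 84.8. *ENO1* shares its member, also with 8 cores, with *ENO1-AS1*.

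Where genes on both strands had values at a member (65 peaks), both reached a mean FPKM of 1 at 24, 1 gene did so at 37 and neither at 4. *PGM1* shared its peak with *ITGB3BP* (15.5 and 14.7), *PGAM1* with *RRP12* (16.8 and 16.4), and *FAM162A* with *MIX23* (28.4 and 32.0). *SAP30*, a subunit of a histone deacetylase complex, was found after the values were seen and had 21.0 and 21.3 and its divergent transcript 3.14 and 2.19. *PDK1* and *PDK1-AS1* (8.90 and 7.86) were both expressed, but *LONP1* faced *CATSPERD*, which was listed at 0 in both libraries. Whether the RNA-seq kept the strand is not given in the sources used here, so reads of overlapping genes on opposite strands cannot be told apart.

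A promoter peak need not lie at the start that a gene uses. Levels of single transcripts were summed over those that start within 1 kb of a member and set against all transcripts of the gene found in both annotations. Of 126 expressed genes that also have starts elsewhere, 92 drew over 50% of their FPKM from transcripts at the member in both libraries and 54 over 90%. At *EGLN1* the share was all of the FPKM in replicate 1 and 99.9% in replicate 2, and at *PGAM1* 99.6% in both. For 31 genes it was under 50% and for 15 under 10% in both libraries.

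Several glucose genes were in that last group. Transcripts starting at the member gave 0.109% and 0.218% of the *GPI* level, 0.853% and 0.717% of the *SLC16A3* level, and 1.44% and 1.53% of the *PFKFB3* level. At *LDHA* the share was 34.5% and 32.9%, and at *ENO1* 45.1% and 43.5%. Outside glucose use it was 12.5% and 11.7% at *KDM2A*, and 2.21% and 1.56% at *ZNF395*. *RBPJ* drew 11.8% and 39.9% from the member's transcripts, a difference between the libraries larger than for the others named. *TPD52* and *RTL8C*, noted after their values were seen, had FPKM of 11.1 and 29.97, and of 90.4 and 30.2. These were the widest ratios between the libraries among promoter genes with a mean FPKM above 10. How reads are divided among overlapping transcripts is an estimate, and its part in these shares was not tested.

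**Figure D5:**
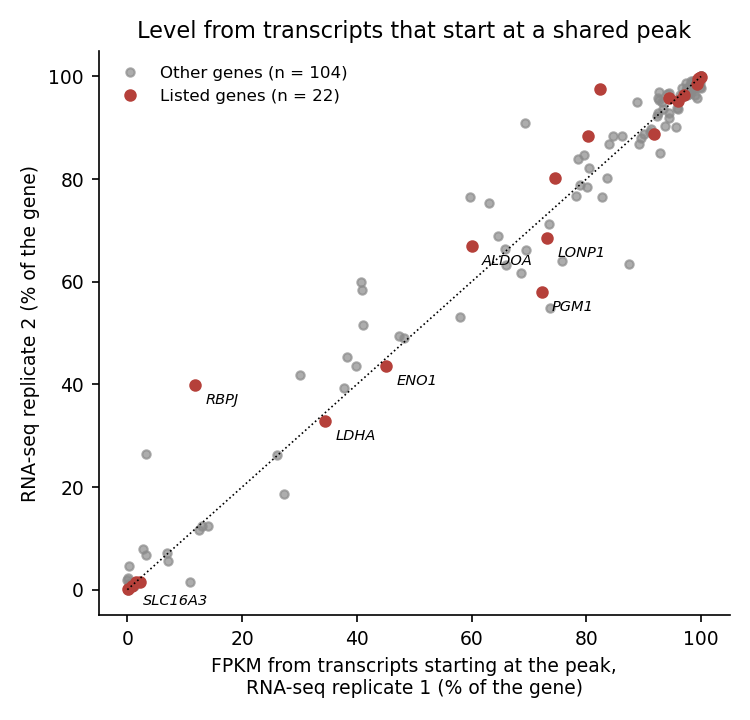
Share of each gene's FPKM that came from transcripts starting within 1 kb of a member, in RNA-seq replicate 1 and replicate 2, for 126 expressed genes with starts elsewhere too. Of the points, 92 lie above 50% in both libraries and 54 above 90%, and *LDHA*, *ENO1* and *SLC16A3* lie below 50%.

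The 55 distal members outside tandem repeats had centres 1501 to 37742 bp from the nearest start site, with a median of 9282 bp and 30 within 10 kb. Centres fell in introns at 23, between genes at 19 and in exons at 13. The AP-1 site TGANTCA was present at 18.2% of them (10.2 to 30.3) and 22.8% (19.1 to 26.99) of the distal peaks of replicate 1 alone that also lay outside tandem repeats. TACGTG was present at 36.4% of them, more than at promoter members, with intervals that overlap (24.9 to 49.6 and 20.6 to 33.5).

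Several distal members lay by listed genes that had no shared promoter peak. An intronic peak whose edge lay 6940 bp upstream of the nearest *EGLN3* start carried 2 cores, and *EGLN3*, another prolyl hydroxylase, had an FPKM of 5.80 and 4.97. A peak in an intron of *PKM*, its edge 1569 bp inside the gene, carried 1 core, where *PKM* (pyruvate kinase) had 852.4 and 747.3. *STC2* had an exonic member with its edge 8358 bp downstream of its start with a core 95 bp from the centre, and an FPKM of 35.8 and 36.7. An intergenic member was centred 6838 bp downstream of the start of *BHLHE40*, a repressor gene with 67.7 and 67.0, whose own promoter had a peak in replicate 1 alone.

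By number of cores in the common bases, the distal member at chr8:134387668-134388243 came first, with 7. Its centre lay 16978 bp from the nearest start site, of the pseudogene *DPPA3P7*, and farther, at -73690 bp (upstream), from the nearest protein-coding start, that of *NDRG1*, a gene with an FPKM of 210.7 and 209.3 and no promoter peak in either replicate. *MTFP1*, a mitochondrial fission gene, followed with 6 cores and an FPKM of 34.6 and 31.6, and *STX16* with 5. *ZNF395* had an intronic member with 4 cores beside its promoter member, at 37.0 and 42.3. *KLHL31* and *EDN2*, each with 4, were nearly silent, at 0.173 and 0.233 and at 0.398 and 0.494. *LFNG*, which modifies Notch receptors, had a member with its edge 3830 bp upstream of its start and an FPKM of 83.6 and 74.1. *NEK6*, *EPHB1* and *MTRES1* had 3 cores each. An intronic member in a tandem repeat had 4. Its centre lay at -55010 bp (upstream) from the nearest start site, that of *MMEL1*, a gene listed at 0. Nearness in the genome does not show which gene a distal peak acts on.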

How the data were processed

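The samples were HK2 cells under 50 μM FG-4592, with 2 peak lists from HIF1α ChIP-seq and 2 transcript tables from RNA-seq. The authors aligned ChIP-seq reads to hg19 with Bowtie2, kept unique alignments and called peaks with MACS2 per replicate. Whether replicates were separate cultures is not stated, and the version, threshold and control are not given in the sources used here. The lists hold positions only, so depth is unknown and Wilson intervals cover counting error. For the RNA-seq, HISAT2 and StringTie 1.3.3 with GENCODE 27 gave the FPKM and TPM that the authors deposited per transcript. The methods name hg19 for the RNA-seq too, but the deposited tables use GRCh38 (0.755% of 193991 transcripts start where GRCh37 has them), so genes were joined by identifier. Start sites and exons came from GENCODE 44 mapped to GRCh37.

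The members and lists were chosen with earlier results of these data known. Genes were named from 10 lists of HIF-related genes, the 15 highest by FPKM among genes whose start site was nearest to a promoter member's centre, the 15 promoter and 15 distal members with most cores, and members at the limits of the rule or with the 5 widest overlaps. Genes that share a member with one of these are named beside it, and others are marked as found after their values were seen. Fisher's exact test, two-sided, compared shares, and p-values were adjusted over 4 tests by the method of Benjamini and Hochberg. No p is printed for 2 of them, which used positions that chose the members. The unit tested was the peak, so p-values say nothing of the spread between cultures. Alternatives covered the overlap, promoter window, start sites, motif window, expression unit and each replicate left out, and leaving out tandem repeats was added after seeing the data. Code was tested on simulated data. Versions were samtools 1.23.1, matplotlib 3.10.9, pysam 0.24.0, statsmodels 0.14.6, scipy 1.17.1, pandas 2.3.3, numpy 2.4.6 and Python 3.11.15.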

Additional observations from a re-analysis of the deposited data

How the results depend on the processing

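Of 42 alternatives, 35 planned and 7 added after seeing the data, 32 left the label of their result unchanged, by rules that let a count move further than a share. The 344 members numbered 241 with centres within 100 bp and 230 without tandem repeats. Their core share, 64.2%, became 53.8% within 50 bp of the centre, 57.8% on the partner's centre and 90.4% without tandem repeats, and with one ChIP-seq replicate left out it ran from 26.7% (all replicate 2 peaks) to 85.0% (all replicate 1 peaks). Leaving out tandem repeats moved the distal odds ratio of 0.0857 to 0.626, and the promoter share odds ratio of 0.528 to 1.54, in the opposite direction. The exon partner odds ratio of 0.0524 became 0.390 without tandem repeats and 0.699 in promoter members. With cores counted within 50 bp of the centre it was 0.139, and within 200 bp it was 0.0253. No test is given for values that rest on the repeat limit, which was chosen after seeing the data. Leaving repeats out removes most distal members by construction, and for the other moves the cause was not tested. The median FPKM of 14.8 was 40.96 in TPM, another scale, and 14.7 to 14.9 with one RNA-seq replicate left out. No paired analysis was possible because the groups that share replicate numbers are different assays and no test compares them. Without peak scores or depth, members could not be filtered by strength, and 2 libraries per assay limit every spread given.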
